A study of Mus musculus with 6 samples.

Results

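Ribosomal protein genes encode the protein components of the cytoplasmic ribosome. Those examined here were the genes whose mouse symbol follows the Rpl or Rps numbering, with an optional a, x, y, digit or l ending, plus Rpsa, Rplp0, Rplp1 and Rplp2. Pseudogenes with a -ps symbol were left out. The rule found 65 of the 22180 genes tested, 40 of the large subunit and 25 of the small subunit. It used symbols only and no measured value. RefSeq classes 2 of the 65, Rpl6l and Rps4l, as pseudogenes, and they were kept because the rule takes them.

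The 6 samples were CD4 T cells sorted from the digested lungs of wild-type mice. The PBS group (3 arrays) came from mice sensitised and challenged with PBS, the saline vehicle, and the HDM group (3 arrays) from mice treated with house dust mites (HDM), an allergen that provokes allergic airway inflammation. The sort kept cells positive for CD45 and CD4 and negative for CD11b and a macrophage antigen, and each sample was hybridised to 1 Affymetrix mouse gene array. The labels call the arrays of a group biological replicates. The sources used here give no age, strain, dose or schedule, nor how many animals went into a sample. Values are log2 signals, and a difference is HDM minus PBS.

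The array values were those of T cells, with Cd4 at means of 12.5 (PBS) and 12.7 (HDM) and Cd3e at 12.8 and 12.9 on the log2 scale. Array medians lay between 6.57 and 6.64. Signal of lung cells outside the gate was also present, with Sftpc, the surfactant protein C gene of alveolar epithelium, between 9.12 and 11.04 and lowest in both arrays numbered 1. Its difference of −0.40 ± 0.52 (SE) had a limma adjusted p of 0.777, and of 0.0177 with the replicate number as a block. In a bulk sample, fewer cells of a type and less RNA per cell cannot be told apart.

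A ribosome joins a small subunit, which reads the messenger RNA, to a large subunit, which forms the peptide bond, and each protein is made in matching amounts from its own gene. Resting T cells hold few ribosomes, and activation through the antigen receptor raises ribosome production by way of mTOR and Myc. Most vertebrate ribosomal protein messenger RNAs begin with a terminal oligopyrimidine (TOP) tract, a run of C and T in the gene, through which mTOR and Larp1 control their translation. Larp1 also binds and stabilises these messenger RNAs. An array measures the RNA and not its translation.

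The TOP tract is the sequence feature the genes are known for, and a C and T run at the start is shown for 7 of them, chosen because the run crosses the annotated start: 5 that were lower in HDM when replicate numbers were used as pairs (Rps27, Rpl35, Rpl15, Rpl14 and Rps9), and 2 bright members whose signal differed little (Rps6 and Rpl28). Each stretch runs from 30 bases before the annotated transcription start to 15 bases after it, in the direction of transcription, with its longest C and T run in capitals. The sequences are RefSeq's for GRCm38.p6.
Rps27: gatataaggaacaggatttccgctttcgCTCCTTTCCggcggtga
Rpl35: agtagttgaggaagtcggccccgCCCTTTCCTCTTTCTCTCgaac
Rpl15: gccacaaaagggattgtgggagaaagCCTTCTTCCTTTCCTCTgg
Rpl14: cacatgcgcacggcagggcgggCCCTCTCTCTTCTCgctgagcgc
Rps9: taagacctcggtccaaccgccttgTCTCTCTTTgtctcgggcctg
Rps6: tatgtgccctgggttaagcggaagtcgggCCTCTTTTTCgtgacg
Rpl28: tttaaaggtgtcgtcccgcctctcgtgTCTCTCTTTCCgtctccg
The stretches lie at chr3:90213634-90213678 (Rps27, minus strand), chr2:39005117-39005161 (Rpl35, minus), chr14:18270972-18271016 (Rpl15, minus), chr9:120571487-120571531 (Rpl14, plus), chr7:3704011-3704055 (Rps9, plus), chr4:86857353-86857397 (Rps6, minus) and chr7:4792935-4792979 (Rpl28, plus). Probe positions were not used here, so a gene's signal may come from a copy elsewhere in the genome than the stretch shown. These 7 are not typical of all members. Of the 14 members that fell with the block, 11 had a RefSeq promoter, and in 5 of the 11 a run of at least 8 was the longest of the stretch and covered the first transcribed base in any window. In Rpl6, Rps19, Rps25, Rps3, Rps3a1 and Rps4x it did not. Of the 39 other matched members, 11 had such a run.

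Of the 65 members, 50 had a promoter in the RefSeq table, with 59 windows because some genes have several annotated starts. A run of at least 8 C or T bases within 50 bases of the start was present in 45 of the 59 windows (76.3%), against 35.3% of 21203 windows of the other protein-coding genes. A run of at least 10 was present in 61% of the member windows and 18% of the others. The 42 matched genes with a run of at least 8 in any window had a median log2 difference between HDM and PBS of −0.13, and the 8 without one had −0.18. Of these, 37 of 42 and 7 of 8 had a lower mean in HDM. In the whole windows, from 250 bases before the start to 50 after it and on both strands, CCGGAAG, the core read by ETS family factors, was found in 39% of member windows and 11.5% of the others. The motif GGGCGG, read by Sp family factors, was in 49.2% and 46.2%. The motif AAGATGG, read by YY1, was in 10.2% and 6.23%. The motif TATAAA, read by the TATA-binding protein, was in 8.47% and 12.6%. Each motif was counted by itself, a window can hold several, and a match is only a description of the letters.

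The signal of ribosomal protein genes was slightly lower in HDM across the group, with no gene passing the test on its own. Of the 65 members, 58 had a lower mean in HDM (89.2%), against 51.6% of all genes tested. The median log2 difference of the 65 was −0.18, a ratio of HDM to PBS of 0.880, beside −0.01 over all genes. The members' differences ran from −0.71 (Rpl3) to 0.11 (Rps27l), with a median SE of 0.10. In 24 members every HDM value lay below every PBS value (36.9%, against 11.8% of all genes), and in 0 members did every HDM value lie above (10.8% of all genes). The shares of all genes include dim genes, whereas 61 of the 65 members lay at or above the median signal. When only genes at or above that median were tested, 5.02% were lower at a limma adjusted p under 0.05, against 1.56% of all genes. The overlap shares were not computed for the brighter genes alone. The plot of the difference of each gene shows the shift in both subunits.

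**Figure D1:**
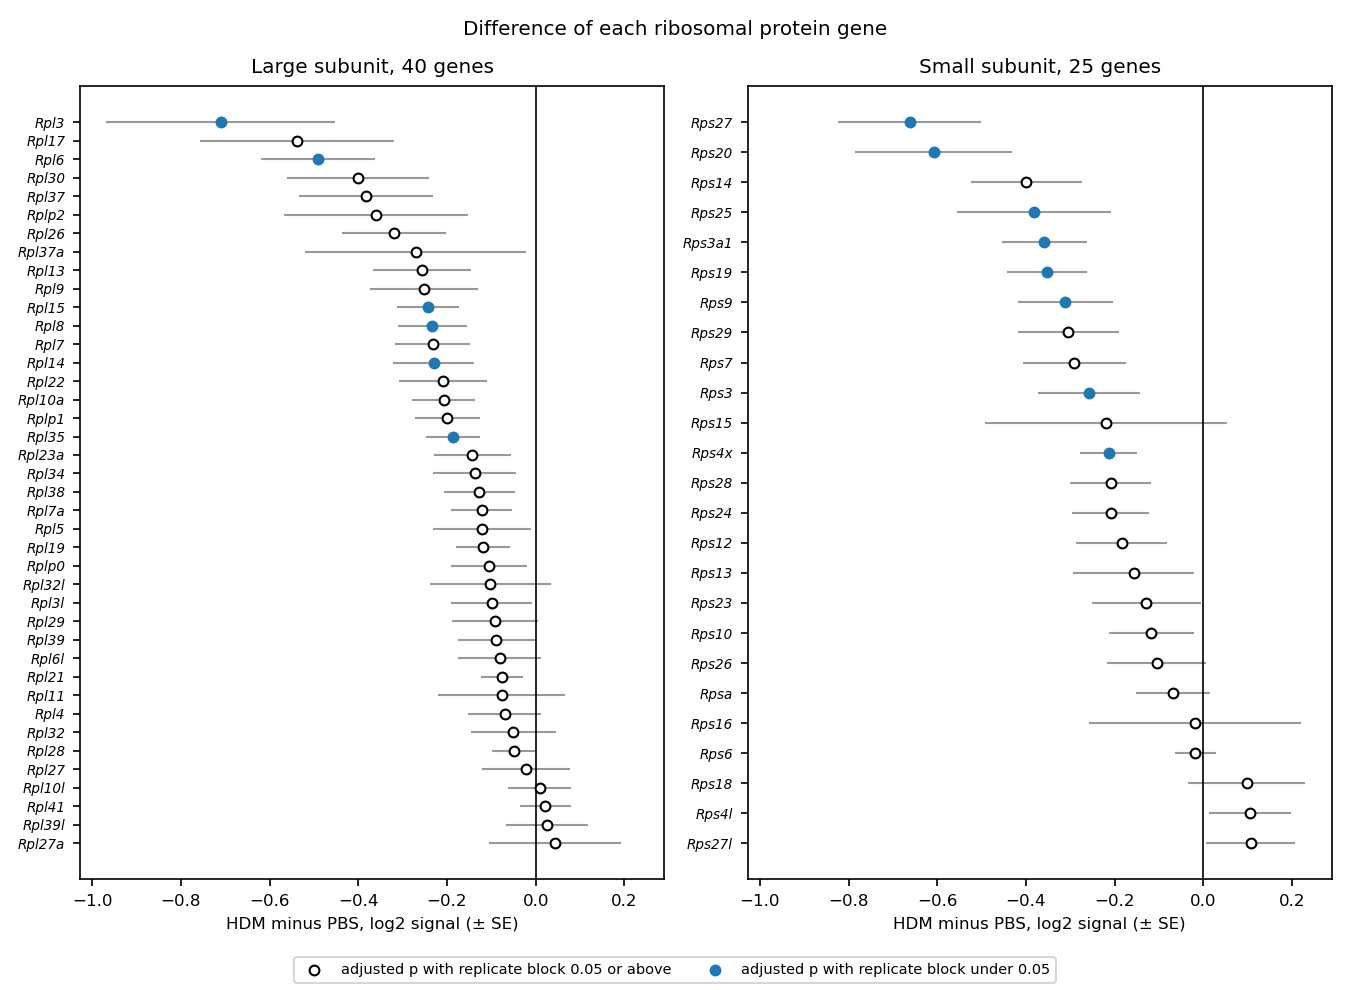
Each point is the HDM minus PBS difference of 1 ribosomal protein gene in log2 signal, with its SE from limma as the bar (3 arrays per group), for the 40 large subunit genes on the left and the 25 small subunit genes on the right. Filled points are the 14 genes with an adjusted p under 0.05 when the replicate number was a block; 58 of the 65 points lie left of 0.

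With limma and Benjamini-Hochberg adjustment over all 22180 genes, 0 members were lower (1.56% of all genes were) and 0 were higher (2.39% of all genes). The smallest adjusted p of a member was 0.0688, for Rps27, and 4 members were lower at an adjusted p under 0.1 (3.23% of all genes). At an unadjusted p under 0.05, 24 members were lower (36.9%, against 9.17% of all genes) and 0 were higher (8.67%). With the replicate number as a block, 14 members fell (21.5%, against 6.01% of all genes) and 0 rose (5.95%). The labels do not say what the numbers stand for, and their use as pairs was taken from these same array values. The calls with the block hold only if the numbers mark real pairs, which was not shown. The 14 were Rps27, Rps20, Rps25, Rps3a1, Rps19, Rps9, Rps3 and Rps4x of the small subunit and Rpl3, Rpl6, Rpl15, Rpl8, Rpl14 and Rpl35 of the large.

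The shift was present in each same-numbered pair of arrays. For replicate numbers 1, 2 and 3 in turn, the median over the 65 genes was −0.26, −0.13 and −0.13, while the medians over all genes were −0.02, 0.01 and −0.01. HDM was the lower array for 60, 51 and 57 of the 65 members in these pairs, and in all 3 pairs for 43 members (66.2%, against 24.1% of all genes). As medians of signal centred on each gene's mean, PBS replicates 1, 2 and 3 stood at 0.10, 0.10 and 0.02, and HDM replicates 1, 2 and 3 at −0.15, −0.02 and −0.09. PBS replicate 3 was thus the lowest control and HDM replicate 2 the highest treated array. Without PBS replicate 3, the number of members whose groups did not overlap, HDM being lower, was 41 (19% of all genes did so), and without HDM replicate 2 it was 39 (15.9%). It was 26 without PBS replicate 1 (16.5%), 25 without PBS replicate 2 (15.2%), 26 without HDM replicate 1 (16.1%), 27 without HDM replicate 3 (19.3%) and 43 without both arrays numbered 3 (26.9%). The map of all members by array shows these differences gene by gene.

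**Figure D2:**
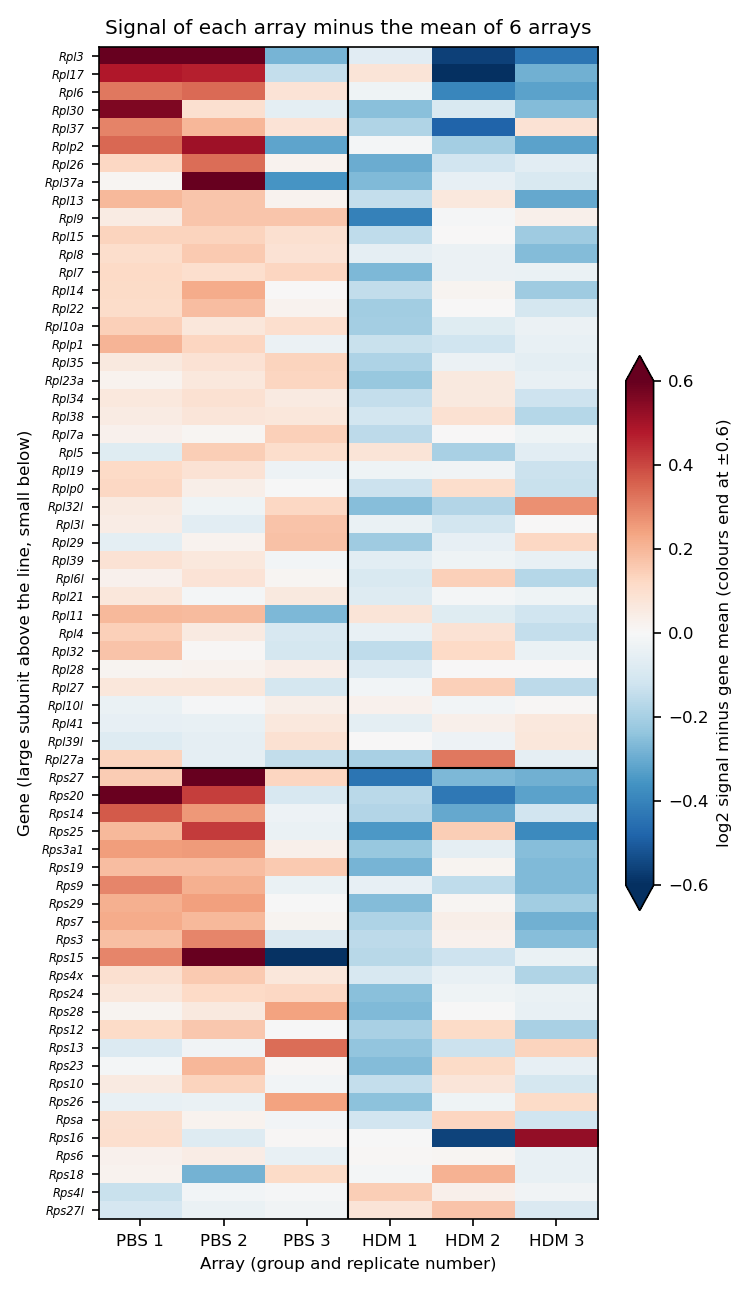
Colour gives the log2 signal of each array minus the gene's mean over the 6 arrays, for 65 genes in rows and 6 arrays in columns; colours end at ±0.6, and genes are ordered by their difference within each subunit. PBS replicates 1 and 2 are mostly above the gene mean and HDM replicates 1 and 3 mostly below, with a median of 0.10 in PBS replicate 1 and −0.15 in HDM replicate 1; PBS replicate 3 is below it for Rpl3, Rplp2, Rpl37a and Rps15.

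The large and the small subunit differed little from each other in these arrays. The median log2 difference was −0.13 over the 40 large subunit genes, of which 36 had a lower mean in HDM, and −0.21 over the 25 small subunit genes, of which 22 did. The large minus small difference of these medians was 0.08. Per array, the large subunit median minus the small subunit median of centred signals was 0.01, −0.07 and 0.04 in PBS replicates 1, 2 and 3 and 0.05, −0.03 and 0.05 in the HDM replicates. The groups overlapped, with means of −0.0097 (PBS) and 0.020 (HDM), a difference of 0.030 against a spread within groups of 0.053 (SD). Within the same-numbered pairs this difference was 0.039, 0.041 and 0.010, above 0 in all 3 pairs, so the small subunit's change was the more negative each time, and this was not tested. With the mean of all probe sets of a gene the difference was 0.019, and without HDM replicate 1 it was 0.014. With the block, 6 of 40 large subunit genes (15%) and 8 of 25 small subunit genes (32%) fell, beside 6.01% of all genes.

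Among large subunit genes, Rpl3, whose protein lies close to the peptidyl transferase centre, had the largest difference. Its log2 signals were 11.17, 11.12 and 10.19 in PBS replicates 1, 2 and 3 and 10.40, 9.91 and 10.03 in the HDM replicates. The first 2 PBS arrays stood apart from the other 4, and PBS replicate 3 lay within the HDM values. The difference was −0.71 ± 0.26 (SE), with adjusted p = 0.195 by limma and 0.0384 with the block. Without PBS replicate 3 it was −1.03 (adjusted p = 0.0182). Among the limma fits without 1 array, Rpl3 passed only in that one, and its adjusted p reached up to 0.495.

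Rpl6, a large subunit protein on the solvent side, gave 8.09, 8.11 and 7.86 in PBS and 7.75, 7.38 and 7.45 in HDM, with no overlap. Its difference was −0.49 ± 0.13 (adjusted p = 0.086 by limma, 0.0244 with the block). The Rpl6l probe set, of the copy classed as a pseudogene, gave 11.28, 11.34 and 11.27 in PBS and 11.16, 11.40 and 11.08 in HDM, and these overlapped (−0.08 ± 0.09). Rpl17, whose protein lines the exit tunnel of the new chain, had 8.91, 8.89 and 8.28 in PBS and 8.50, 7.83 and 8.14 in HDM. Its groups overlapped through PBS replicate 3 and HDM replicate 1 (−0.54 ± 0.22, limma adjusted p = 0.244).

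Rpl15, Rpl8, Rpl14 and Rpl35 had smaller differences, with HDM the lower array in all 3 pairs. Rpl15 had 12.47, 12.47 and 12.44 in PBS and 12.19, 12.34 and 12.12 in HDM, a difference of −0.24 ± 0.07 without overlap (limma adjusted p = 0.112, and 0.0315 with the block). Rpl8, next to the peptidyl transferase centre, had 11.99, 12.04 and 11.97 in PBS and 11.83, 11.85 and 11.62 in HDM (−0.23 ± 0.08, 0.162 and 0.0423). Rpl35, at the exit tunnel, had 12.75, 12.78 and 12.82 in PBS and 12.50, 12.66 and 12.63 in HDM (−0.19 ± 0.06, 0.155 and 0.0458). The Rpl14 values, 11.30, 11.41 and 11.19 in PBS and 11.04, 11.20 and 10.97 in HDM, overlapped between PBS replicate 3 and HDM replicate 2 (−0.23 ± 0.09, 0.237 and 0.0377).

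The stalk proteins Rplp0, Rplp1 and Rplp2 recruit the elongation factors to the large subunit. Rplp1 had 12.67, 12.60 and 12.43 in PBS and 12.33, 12.35 and 12.42 in HDM, a difference of −0.20 ± 0.07 that did not pass (limma adjusted p = 0.206). Rplp2 had 7.25, 7.42 and 6.59 in PBS and 6.90, 6.70 and 6.58 in HDM, so PBS replicate 3 lay with the HDM arrays (−0.36 ± 0.21, 0.436). Rplp0 had 11.80, 11.71 and 11.67 in PBS and 11.55, 11.78 and 11.54 in HDM, and HDM replicate 2 lay among the controls (−0.10 ± 0.09, 0.602). Rplp0 and Rplp1 each had a second, dimmer probe set with another difference. That of Rplp0 had 8.90, 9.07 and 8.65 in PBS and 8.502, 8.31 and 8.59 in HDM, without overlap (−0.41 ± 0.13), and that of Rplp1 differed by 0.17 ± 0.11. With the probe sets used, none of the 3 genes passed with the block, with adjusted p of 0.425, 0.112 and 0.150 for Rplp0, Rplp1 and Rplp2.

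Rpl5 and Rpl11 bind Mdm2 when ribosome assembly is disturbed, which stabilises p53. Rpl5 had 6.97, 7.19 and 7.15 in PBS and 7.12, 6.85 and 6.98 in HDM (−0.12 ± 0.11). Rpl11 had 7.43, 7.42 and 6.96 in PBS and 7.31, 7.16 and 7.11 in HDM (−0.08 ± 0.14), so both genes overlapped between groups. Rpl22, a large subunit protein required for alpha beta T cell development, had 7.79, 7.87 and 7.71 in PBS and 7.48, 7.69 and 7.58 in HDM, without overlap (−0.21 ± 0.10, limma adjusted p = 0.329).

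The 4 large subunit genes with a higher mean in HDM were Rpl27a (0.04 ± 0.15), Rpl39l (0.03 ± 0.09), Rpl41 (0.02 ± 0.06) and Rpl10l (0.01 ± 0.07), each within its SE of 0. Rpl41, which encodes the smallest ribosomal protein, read 13.21, 13.21 and 13.32 in PBS and 13.20, 13.29 and 13.32 in HDM. Rpl10l and Rpl39l are copies used mainly in the testis and Rpl3l in striated muscle. Rpl10l stayed between 4.59 and 4.67 on all 6 arrays and Rpl3l between 5.54 and 5.82 (−0.10 ± 0.09). Rpl32l, the dimmest member, lay between 3.49 and 4.02 (−0.10 ± 0.14). Rpl39l read 7.30, 7.33 and 7.47 in PBS and 7.38, 7.35 and 7.45 in HDM, which overlapped.

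Among small subunit genes, Rps27, a zinc finger protein, had the largest difference. Its signals were 9.47, 10.03 and 9.45 in PBS and 8.88, 9.05 and 9.03 in HDM. All HDM arrays lay below all controls, and PBS replicate 2 was the highest. The difference was −0.66 ± 0.16, a ratio of 0.632 (adjusted p = 0.0688 by limma, 0.0114 with the block). Its close copy Rps27l, a target of p53, had 8.46, 8.53 and 8.54 in PBS and 8.64, 8.73 and 8.48 in HDM, which overlapped (0.11 ± 0.10, limma adjusted p = 0.663).

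Rps20, in the head of the small subunit, had 7.88, 7.71 and 7.20 in PBS and 7.13, 6.86 and 6.97 in HDM, with PBS replicate 3 close above the highest HDM array. Its difference was −0.61 ± 0.18 (limma adjusted p = 0.114, and 0.027 with the block), and a second probe set of the gene differed by −0.36 ± 0.14. Without PBS replicate 3 the difference was −0.81 (adjusted p = 0.0227). Rps20 passed in no other limma fit without 1 array (adjusted p of up to 0.343). Rps14, on the platform of the small subunit, had 8.40, 8.29 and 8.002 in PBS and 7.86, 7.72 and 7.92 in HDM, also without overlap (−0.40 ± 0.13, 0.139 and 0.0672 with the block).

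Rps19, the gene first found mutated in Diamond-Blackfan anaemia, had even controls at 11.91, 11.91 and 11.88 and HDM values of 11.44, 11.74 and 11.45, with HDM replicate 2 nearest to the controls. The difference of −0.35 ± 0.09 had adjusted p = 0.0806 by limma and 0.0206 with the block, and without HDM replicate 2 it was −0.45 (adjusted p = 0.0473). In the other limma fits without 1 array Rps19 did not pass (adjusted p of up to 0.264). Rps3a1 had 11.10, 11.10 and 10.87 in PBS and 10.62, 10.79 and 10.59 in HDM (−0.36 ± 0.10, 0.0907 and 0.0151). Its second, much dimmer probe set differed by 0.04 ± 0.12. The plot of signal per array shows these genes beside Rps6 and Rps27l.

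**Figure D3:**
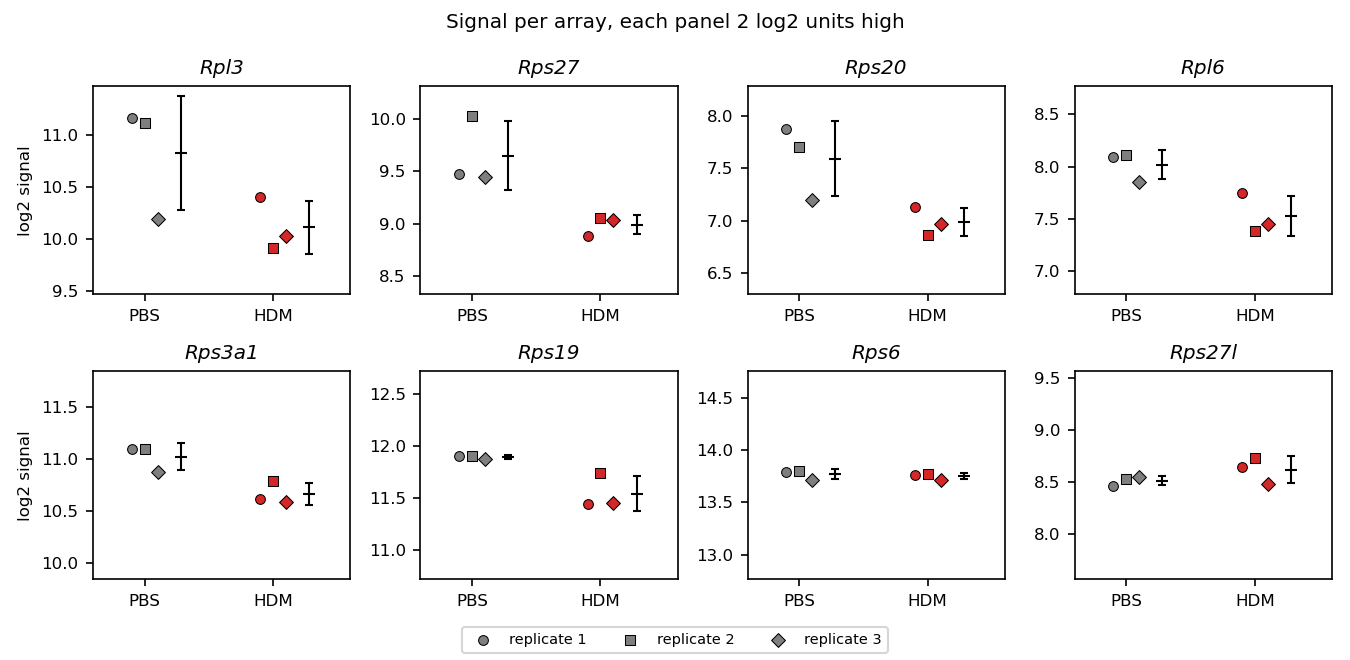
Log2 signal of 8 ribosomal protein genes in each PBS (grey) and HDM (red) array, with symbols for the replicate number, and the mean ± SD of 3 arrays to the right of each group; every panel spans 2 log2 units. Rps27, Rps20, Rpl6, Rps3a1 and Rps19 have all HDM values below all PBS values, Rpl3 overlaps through PBS replicate 3, and Rps6 and Rps27l overlap.

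Rps3 and Rps9 contact the messenger RNA where it enters the small subunit. Rps9 had 11.12, 11.04 and 10.79 in PBS and 10.78, 10.67 and 10.56 in HDM (−0.31 ± 0.11, limma adjusted p = 0.171, and 0.0203 with the block). Its second probe set differed by 0.02 ± 0.14. Rps3 had 11.81, 11.92 and 11.54 in PBS and 11.47, 11.65 and 11.38 in HDM, which overlapped (−0.26 ± 0.12, 0.294 and 0.0295). Rps25, needed for translation from some internal entry sites, had 9.28, 9.51 and 9.05 in PBS and 8.74, 9.24 and 8.71 in HDM. HDM replicate 2 overlapped the controls (−0.38 ± 0.17, 0.302 and 0.027), but HDM was lower in each pair, by 0.54, 0.27 and 0.34.

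Rps4x, encoded on the X chromosome, had 12.32, 12.39 and 12.30 in PBS and 12.13, 12.19 and 12.05 in HDM, a small difference without overlap (−0.21 ± 0.06, limma adjusted p = 0.12, and 0.0296 with the block). Its copy Rps4l, classed as a transcribed pseudogene, had 6.78, 6.89 and 6.90 in PBS and 7.06, 6.94 and 6.89 in HDM (0.11 ± 0.09). Rps6 encodes the substrate of the S6 kinases downstream of mTOR. The probe set used for it was even across all arrays, at 13.79, 13.81 and 13.72 in PBS and 13.77, 13.77 and 13.72 in HDM (−0.02 ± 0.05). Whether that probe set reads Rps6 or a copy of the gene is not known. Rpsa, also known as the laminin receptor, had 12.09, 12.01 and 11.97 in PBS and 11.87, 12.12 and 11.87 in HDM, which overlapped (−0.07 ± 0.08). Its second, dimmer probe set differed by −0.31 ± 0.13, also with overlap.

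Some small subunit genes varied more within a group than between groups. Rps15 had 7.21, 7.54 and 6.32 in PBS and 6.75, 6.79 and 6.88 in HDM, with PBS replicate 3 the lowest of all 6 (−0.22 ± 0.27). Rps16 had 6.78, 6.61 and 6.69 in PBS and 6.68, 6.13 and 7.21 in HDM, with HDM replicates 2 and 3 as the extremes (−0.02 ± 0.24). Rps18 had 8.25, 7.94 and 8.34 in PBS and 8.21, 8.43 and 8.18 in HDM (0.10 ± 0.13), while its other 2 probe sets differed by −0.13 and −0.43.

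The brightest members differed little with the probe sets used. The 7 with a mean log2 signal of 13 or above had differences between −0.12 and 0.02, and the 28 between 10 and 13 had a median of −0.21, with a lower HDM mean for all 28. The 22 between 7 and 10 had a median of −0.24, with 18 lower, and the 8 below 7 had −0.10, with 6 lower. A probe set's brightness depends on its sequence as well as on the RNA, so this orders probe sets and not genes. Of the 65 genes, 24 had more than 1 distinct probe set. Of their 34 other probe sets, 25 were lower in HDM and 9 higher, with a median of −0.18. Some dimmer probe sets had a more negative difference than the one used. Examples are Rpl21 at −0.60 (used −0.08), Rpl7a at −0.61 (used −0.12), Rpl27 at −0.38 (used −0.02) and Rps28 at −0.55 (used −0.21). Dimmer probe sets of Rpl4 (0.56, used −0.07) and Rplp1 (0.17, used −0.20) went the other way. Members with near-identical copies in the genome may share signal with them. A further 11 ribosomal protein genes had only probe sets naming several genes. All 11 had a lower mean in HDM (median −0.17), and Rpl24, whose probe set also names Zbtb11, fell by 0.38 on the log2 scale when they were added (limma adjusted p = 0.0495).

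Ribosome biogenesis genes, whose products process ribosomal RNA and assemble the subunits, were also lower in HDM as a group. Of 70 measured, 9 fell (1.56% of all genes did), 0 rose (2.39%) and 61 did not pass with limma. A lower mean in HDM was found for 67 (95.7%, against 51.6% of all genes), and the median log2 difference was −0.25. With the block, 26 fell (37.1%, against 6.01% of all genes). The limma count was 0 without PBS replicate 1 or 2 or HDM replicate 1 or 2 (each left out alone). In those fits 0.185% to 0.316% of all genes fell. The count was 8 without PBS replicate 3 (1.56% of all genes) and 11 without HDM replicate 3 (3.26%). The list median stayed between −0.30 and −0.24 in each of these fits. Las1l, a factor of ribosomal RNA cleavage, had 8.85, 9.01 and 8.93 in PBS and 8.20, 8.12 and 8.45 in HDM (−0.67 ± 0.11, limma adjusted p = 0.0196). Gnl3, the nucleolar GTPase nucleostemin, had 9.35, 9.58 and 9.33 in PBS and 8.75, 8.63 and 8.94 in HDM (−0.64 ± 0.12, 0.0269). Tsr2, a chaperone of Rps26, had 9.75, 9.78 and 9.76 in PBS and 9.14, 8.91 and 9.38 in HDM (−0.62 ± 0.12, 0.0364), while Rps26 itself differed by −0.10 ± 0.11. These 3 genes had no overlap between groups. Each lost its call when PBS replicate 1 or 2 or HDM replicate 1 or 2 was left out alone. The limma adjusted p then reached up to 0.108, 0.127 and 0.160. Tsr2 also lost its call without PBS replicate 3.

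**Figure D4:**
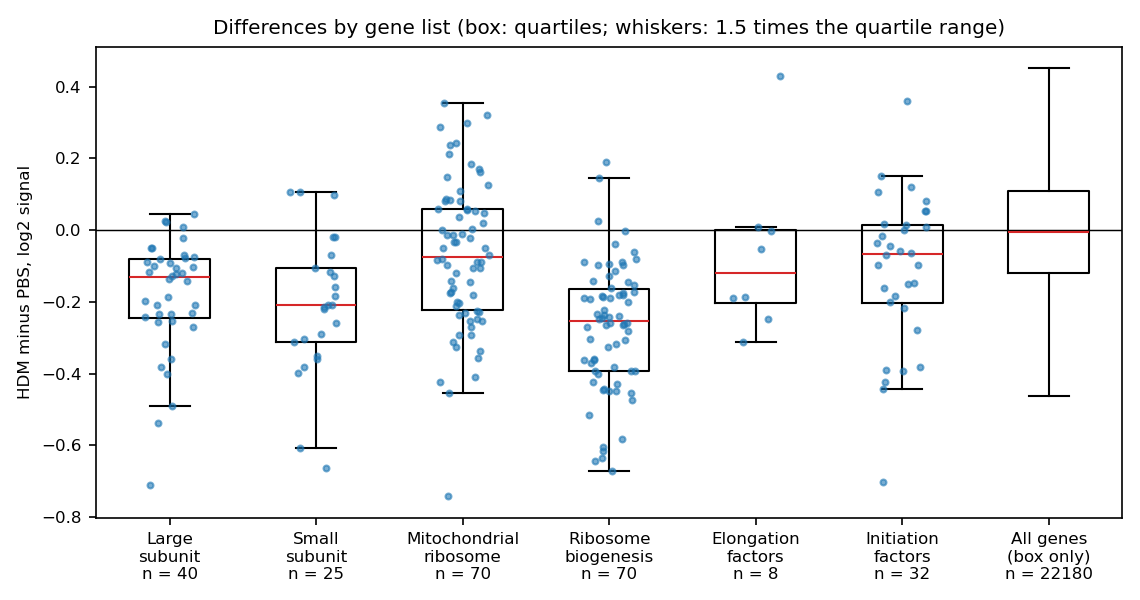
HDM minus PBS difference in log2 signal for each gene of 6 lists (points), with boxes for the quartiles, a red line for the median and whiskers to 1.5 times the quartile range, beside the box for all 22180 genes. The medians were −0.13 for the large and −0.21 for the small subunit, −0.08 for the mitochondrial ribosome, −0.25 for ribosome biogenesis and −0.01 for all genes.

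Other genes of the translation machinery were measured beside them. Of all genes, 1.56% were lower and 2.39% higher with limma, and 6.01% and 5.95% with the block. At an unadjusted p under 0.05 by limma the shares were 9.17% and 8.67%. These shares apply to the lists here and below. Of 70 mitochondrial ribosomal protein genes, 2 fell, and 6 (8.57%) were lower with the block. A lower mean in HDM was found for 45 (64.3%, against 51.6% of all genes), with a median of −0.08. The 2 that fell were Mrps28 (−0.45 ± 0.10, limma adjusted p = 0.0482) and Mrps30 (−0.42 ± 0.09, 0.047), both small subunit proteins of the mitochondrial ribosome. Without 1 array, Mrps28 passed in 1 of 6 fits (adjusted p of up to 0.202) and Mrps30 in 0 of 6 (up to 0.192), and both lost the call with arrays centred on their medians. Among 14 genes of RNA polymerase I and its factors, which transcribe ribosomal RNA, 0 passed with limma, 6 were lower at an unadjusted p under 0.05, and 4 fell with the block (median −0.24). A lower mean in HDM was found for 11 of the 14 (78.6%). Of 32 initiation factor genes 0 passed, with 9 lower and 1 higher at an unadjusted p under 0.05 and 6 lower and 1 higher with the block (median −0.07). Of 8 elongation factor genes 0 passed, with 2 lower and 1 higher at an unadjusted p under 0.05 and also with the block (median −0.12). Eef1a1, which brings aminoacyl-tRNA to the ribosome, differed by 0.01 ± 0.05 and Eef2, the translocase, by −0.05 ± 0.05.

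Fau, which encodes a fusion with a small subunit protein and lies outside the symbol rule, was 1 of 3 such genes measured, of which 0 passed with limma, at an unadjusted p under 0.05 or with the block. It read 13.09, 13.06 and 13.12 in PBS and 13.04, 13.16 and 13.12 in HDM (0.02 ± 0.05). Of 9 measured genes with known TOP messenger RNAs other than ribosomal proteins, 8 had a lower mean in HDM (median −0.11) and none of those 8 passed with limma, at an unadjusted p under 0.05 or with the block. The ninth, Vim, the intermediate filament vimentin, rose by 0.48 ± 0.05 (limma adjusted p = 0.00417), though not with the mean of its probe sets (0.63, adjusted p = 0.116).

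Few regulators of ribosome production passed, and those that did went both ways. Of 24 genes of mTOR and TOP translation control, 1 rose, 1 fell and 22 did not pass (median 0.00), while 2 rose and 2 fell with the block. The further 2 were Larp1 (−0.28 ± 0.08, limma adjusted p = 0.106, and 0.0392 with the block), and Akt1, a kinase upstream of mTOR (0.40 ± 0.10, 0.0631 and 0.0102). Larp1 had 10.75, 10.80 and 10.61 in PBS and 10.44, 10.43 and 10.46 in HDM, without overlap. Eif4ebp1, the cap-binding inhibitor that mTOR phosphorylates, had 8.53, 8.57 and 8.39 in PBS and 9.34, 9.37 and 9.37 in HDM (0.86 ± 0.09, limma adjusted p = 0.00381). Rictor, a subunit of mTOR complex 2, fell by 0.50 ± 0.08 (adjusted p = 0.0144, and up to 0.0915 without 1 array). Myc read 9.71, 9.65 and 8.89 in PBS and 9.49, 9.44 and 9.23 in HDM (−0.03 ± 0.21), with PBS replicate 3 the lowest array. None of the 11 genes of the Myc network passed with limma, at an unadjusted p under 0.05 or with the block. A lower mean in HDM was found for 9 of the 11 (81.8%, median −0.06). It was found for 12 of the 24 genes of mTOR and TOP translation control (50%) and for 51.6% of all genes. Of 8 p53 checkpoint genes 0 passed with limma, 1 was higher and 1 lower at an unadjusted p under 0.05, and 1 rose and 2 fell with the block.

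Markers of T cell state and of other cells moved beside these results. Of 11 general T cell markers 1 rose (42730 to 44310 summed linear signal in PBS, 47000 to 49480 in HDM). Of 10 measured markers of naive T cells, 9 fell, and their summed linear signal was 42340 to 45240 in PBS and 25610 to 29860 in HDM. Of 12 markers of effector and memory T cells, 7 rose, with sums of 13950 to 16160 in PBS and 26080 to 32160 in HDM. With the block, 3 general T cell markers and all 12 effector and memory markers rose, and all 10 naive markers fell. Of 14 markers of dividing cells, 0 passed with limma, 2 were higher at an unadjusted p under 0.05 and 4 rose with the block. Their sums were 7263 to 8483 in PBS and 7521 to 10800 in HDM. The summed signal of the 65 ribosomal protein genes was 183000 to 186600 in PBS and 161900 to 176700 in HDM. The part of T cell state in the ribosomal protein result was not tested.

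For cells outside the gate, 0 of 9 B cell and 0 of 12 macrophage and monocyte markers passed with limma, 0 of each did at an unadjusted p under 0.05, and 0 B cell and 1 macrophage and monocyte marker did with the block. Their sums overlapped between groups, at 1178 to 1698 in PBS and 1123 to 2574 in HDM for B cells and 3604 to 4998 and 3780 to 6199 for macrophages and monocytes. Of 9 natural killer cell markers 3 fell (2938 to 4506 in PBS, 2063 to 3290 in HDM). Of 12 endothelial, epithelial and stromal markers 1 fell with limma (Pecam1, −0.51 ± 0.08, adjusted p = 0.0169). With the block, which also called the 14 ribosomal protein genes, 5 of the 12 fell (41.7%): Pecam1, Sftpc and the endothelial genes Tek, Kdr and Cdh5. HDM was lower in all 3 pairs for 9 of the 12. The summed signal of the 12 was 7027, 12660 and 11310 in PBS replicates 1, 2 and 3 and 6171, 10790 and 9481 in the HDM replicates, so it was lower in HDM in each pair. None of these markers can read 0 on this log2 scale, and their part in the result was not tested.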

How the data were processed

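The authors deposited log2 values, 1 per probe set and array. The submitters' processing notes name RMA, with no version. RMA as usually run equalises the arrays' distributions, which hides a change in total RNA per cell. Of 33960 probe sets, 23521 had exactly 1 gene symbol in the platform annotation, giving 22180 genes. The brightest by mean over the 6 arrays was used for the 1082 genes with several. No gene was filtered for low signal, so all 65 members were tested. Any 2 arrays shared at most 5 identical values over these genes.

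HDM and PBS were compared in R 4.3.3 with limma 3.58.1 (lmFit, eBayes with an intensity trend, two-sided, Benjamini-Hochberg over 22180 genes, threshold 0.05), which was tested on simulated data. SEs and adjusted p-values come from this fit unless the block is named. Over all genes, the PBS and HDM arrays sharing a number deviated together, with correlations of 0.43, 0.17 and 0.53 for numbers 1, 2 and 3. Each exceeds 0.1, so the numbers were treated as pairs. Arrays of unlike number were not compared in this way, so the values do not show that same-numbered arrays are more alike. The fit with the replicate number as a block is quoted where a call differs. The pairing comes from the data; the labels do not say what the numbers stand for.

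The members and gene lists were chosen with earlier results of these data known. The naming rule took members that passed, the 3 largest differences in each direction per subunit, copies of other members, Rpsa, Rplp0, Rplp1, Rplp2 and Rps6, and up to 3 passing genes per list, with Fau, Eef1a1, Eef2, Myc and Cd4 always. The other members, Larp1, Akt1 and the single lung cell markers were named after their values were seen. Lists are described by counts and medians only. Some genes of the lists were not analysed here.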

Additional observations from a re-analysis of the deposited data

How the results depend on the processing

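The number of members lower in HDM was 0 with limma and depended on the fit. It was 14 with the replicate block (6.01% of all genes), 12 without both arrays numbered 3 (5.98%; 6 genes shared with the 14), 6 with array weights (4.16%; 5 shared), 1 among genes at or above the median signal (Rps27; 5.02%), 1 with several-symbol probe sets added (Rpl24; 1.56%), 4 at an adjusted p under 0.1 (3.23% of all genes), and 0 to 2 without 1 array (0.185% to 3.26%). It was 0 with the 25th percentile filter, repeated quantile normalization, median centring, the other variance models, and averaged or separately tested probe sets. The number higher was 0 in all settings run. The number with a lower HDM mean was 55 to 59 of 65 without 1 array, and the members' median difference −0.21 to −0.13. Members without overlap between groups numbered 25 to 41 without 1 array and 43 without both arrays numbered 3 (26.9% of all genes). The large subunit median was −0.20 to −0.12 without 1 array, and the large minus small difference 0.014 to 0.082, and 0.019 with averaged probe sets.

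Some genes changed sign, most of them with differences near 0, but also Rps15 (−0.22). With averaged probe sets Rpl4 read 0.24, Rps18 −0.15, Eef1a1 −0.049 and Fau −0.018, and with repeated quantile normalization Rpl10l read −0.035. Without 1 array the ranges were −0.0089 to 0.028 for Rpl10l, −0.23 to 0.0013 for Rpl11, −0.10 to 0.15 for Rpl27a, −0.0061 to 0.076 for Rpl39l, −0.0039 to 0.058 for Rpl41, −0.57 to 0.041 for Rps15, −0.29 to 0.25 for Rps16, −0.019 to 0.18 for Rps18, −0.017 to 0.037 for Eef1a1, −0.0092 to 0.049 for Fau, −0.29 to 0.12 for Myc. The replicate block leaves each difference as it is; among the genes that the naming rule takes, it changed no call other than those of members among the 14. The small number of arrays and the narrow range of bright probe sets limit what differences can be seen.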
